A study of Macaca mulatta with 2 samples.

Results

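*CCL5* and *IFNG*, the genes of a chemokine and of a cytokine that effector T cells release, were taken by name from the deposited count matrix, where they are 2 of 35432 genes. They were described across cells split by their raw counts of *GZMB* (0, 1 to 2, or 3 or more), *EOMES*, *CX3CR1*, *TRAV10*, *CCR9* and *CCR7*, and by whether both transcripts were found in the same cell. A count here is a unique molecular identifier (UMI), a barcode that marks 1 captured transcript. The cells were double positive (DP) T cells, which carry CD4 and CD8 at once, and came from the peripheral blood of 1 untreated rhesus monkey of 6 years, purified with releasable CD4 beads and then with CD8 beads. A 5′ gene expression library and a library of antibody feature barcodes for surface CD4 and CD8 (tags below) were read from the same cells. With 1 animal and no replicate there is no test, and every interval below is a 95% interval that covers counting error only.

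CCL5 (RANTES) draws T cells, monocytes and other leukocytes. Memory and effector CD8 T cells and NK cells hold *CCL5* mRNA at rest and release the protein on stimulation. Interferon gamma, the product of *IFNG*, activates macrophages and raises antigen presentation, and its mRNA is made mainly after a T cell receptor or cytokine signal and decays fast. GZMB is a granule protease of cytotoxic lymphocytes, EOMES a T-box factor of memory and innate-like T cells, CX3CR1 the fractalkine receptor of effector cells, CCR9 a gut-homing receptor and CCR7 a lymph-node homing receptor of naive and central memory cells. *TRAV10* is a variable segment of the T cell receptor alpha chain.

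The coding sequences are shown because counts of these transcripts carry every result below, and they differ in length and composition. In the rhesus assembly Mmul_10, RefSeq places *CCL5* (ENSMMUG00000054796 in the files) on the minus strand at chr16:32220376-32229833, with 2 transcript models, and *IFNG* (ENSMMUG00000056408) on the minus strand at chr11:67686366-67690606, with 1. That *IFNG* model begins and ends with its coding bases, so its span leaves out any untranslated ends. *CCL5* has 276 coding bases with the stop codon in 3 coding exons of 76, 112 and 88 bases, and a GC content of 56.5%. *IFNG* has 498 coding bases in 4 coding exons of 114, 69, 183 and 132 bases, and a GC content of 38.8%. The whole *CCL5* coding sequence and the first 2 coding exons of *IFNG*, 183 bases, are given 5′ to 3′ on the coding strand, with the second coding exon of each in capitals.
CCL5: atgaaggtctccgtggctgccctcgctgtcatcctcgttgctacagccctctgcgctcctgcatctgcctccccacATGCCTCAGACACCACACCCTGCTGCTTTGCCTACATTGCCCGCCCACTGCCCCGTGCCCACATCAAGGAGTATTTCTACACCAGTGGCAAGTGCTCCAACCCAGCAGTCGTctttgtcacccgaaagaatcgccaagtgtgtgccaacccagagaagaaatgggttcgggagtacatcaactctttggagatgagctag
IFNG: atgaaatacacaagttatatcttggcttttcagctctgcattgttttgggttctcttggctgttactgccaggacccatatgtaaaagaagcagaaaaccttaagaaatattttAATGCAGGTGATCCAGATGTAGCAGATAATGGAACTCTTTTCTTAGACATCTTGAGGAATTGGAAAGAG

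The matrix held 7923 barcodes, each with counts of both tags, of which 7601 cells passed the limits of 200 to 4000 genes and no more than 20% mitochondrial counts. They carried 31007499 UMIs, with a median of 3636 per cell and a range of 502 to 23519. Levels are CPM, the UMIs of a gene per 1000000 UMIs of all genes, each summed over a group of cells, and shares of cells with a UMI are also given after each cell was thinned to 2000 UMIs, which left out 495 shallower cells. Both tags passed a cut set on cells with B cell genes, described below, in 3636 of the 7601 cells, so the cells are called DP T cells by their purification. T cell markers summed to 2984 CPM, and B cell markers to 163 CPM. To gauge free RNA, 86 cells with 3 or more B cell marker UMIs and no *CD3D*, *CD3E* or *CD3G* UMI (B gene cells) were used, with a median of 4137.5 UMIs. A doublet caller marked 0 of the kept cells and is taken to have failed, and no doublet was removed.

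*CCL5* was common and *IFNG* rare in these cells. *CCL5* had 8875 UMIs, or 286 CPM (280 to 292), and was found in 2263 cells, 29.8% (28.7 to 30.8), or 24.2% after thinning. Its counts were uneven: 749 cells had 1 UMI, 413 had 2, 637 had 5 or more and 196 had 10 or more, up to 29. The 760 cells with the highest counts, 10% of all, held 70.1% of its UMIs. *IFNG* had 226 UMIs, or 7.29 CPM (6.37 to 8.30), and was found in 198 cells, 2.60% (2.26 to 2.99), or 1.41% after thinning. Of these cells 177 had a single UMI, 15 had 2 and 6 had 3 or 4. In the B gene cells *CCL5* had 14 UMIs in 7 of 86 cells, a share of 8.14% (3.34 to 16.1) and a level of 35.3 CPM (19.3 to 59.2), and 3.80% of those cells held one after thinning. All 7 lay among the 79 B gene cells with no *GZMB* UMI, and the 2 B gene cells with 3 or more *GZMB* UMIs held no *CCL5*. *GZMB* had 263 UMIs in 7 of the 86 cells, most of them in those 2 cells, whose identity was not tested. *IFNG* had 0 UMIs in the B gene cells, for which the upper limit of the share is 3.49% (3 of 86), and 3 UMIs or cells are taken below as the limit for a count of 0.

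Both genes were higher where *GZMB* was found. *CCL5* was at 62.2 CPM (58.7 to 66.0) in the 4254 cells with no *GZMB* UMI, 313 CPM (289 to 339) in the 528 cells with 1 to 2, and 657 CPM (642 to 672) in the 2819 cells with 3 or more. Cells with 1 to 2 *GZMB* UMIs thus stood 5.03-fold (4.55 to 5.56) above cells with 0, and cells with 3 or more 10.6-fold (9.91 to 11.2) above cells with 0 and 2.10-fold (1.93 to 2.28) above cells with 1 to 2. *IFNG* was at 1.87 CPM (1.29 to 2.61) from 34 UMIs, 12.5 CPM (8.0 to 18.6) from 24 UMIs and 15.5 CPM (13.2 to 18.0) from 168 UMIs in the same 3 groups. Cells with 1 to 2 stood 6.69-fold (3.80 to 11.6) above cells with 0, and cells with 3 or more 8.28-fold (5.70 to 12.4), while the ratio of 3 or more to 1 to 2, 1.24 (0.80 to 1.99), has an interval that spans 1. For both genes the larger fold step was the one from 0 to 1 to 2 *GZMB* UMIs.

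*CCL5* was found in 9.26%, 34.1% and 59.9% of cells across the 3 *GZMB* groups, and in 5.92%, 28.7% and 50.3% after thinning. The share in cells with no *GZMB* lay within the interval of the B gene cells. The level of that group, 62.2 CPM (58.7 to 66.0), and the B gene cells' 35.3 CPM (19.3 to 59.2) had intervals that overlap. Of the 86 B gene cells 79 had no *GZMB* UMI and so belong to the group. Its highest count was 27 UMIs over 4254 cells, against 5 over 86. Split by single gate genes, cells inside the group ranged from 1.62 CPM with *SOX4* to 325 CPM with *KLRF1*, as given below. Splits by *IFNG* and by surface tag, also given below, reached higher levels. The part of free RNA in its level was not tested. *IFNG* was found in 0.729%, 4.36% and 5.11% of cells, and in 0.378%, 3.11% and 2.64% after thinning. Median depth ran the other way from these shares, at 4018.5, 3331 and 3295 UMIs. Cells with 3 or more *GZMB* UMIs were 37.1% of all cells and held 80.4% of *CCL5* and 74.3% of *IFNG* UMIs.

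Within the cells with 3 or more *GZMB* UMIs, *CCL5* went on rising with *GZMB* and *IFNG* showed no such order. *CCL5* was at 479 CPM with 3 to 5 *GZMB* UMIs, 515 with 6 to 10, 711 with 11 to 20 and 911 (870 to 953) with 21 to 40. In the 33 cells with 41 or more it fell back to 567 CPM (469 to 679). In that last bin 5 cells held all 167 *IRF8*, all 269 *LILRA3* and 178 of the 183 *JCHAIN* UMIs, and 0 *CCL5* UMIs, and without them *CCL5* was at 732 CPM (605 to 877). *IFNG* was at 14.7, 16.7, 12.1, 21.8 and 9.68 CPM across the 5 bins, the last from 2 UMIs, with intervals that overlap between neighbours.

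**Figure D1:**
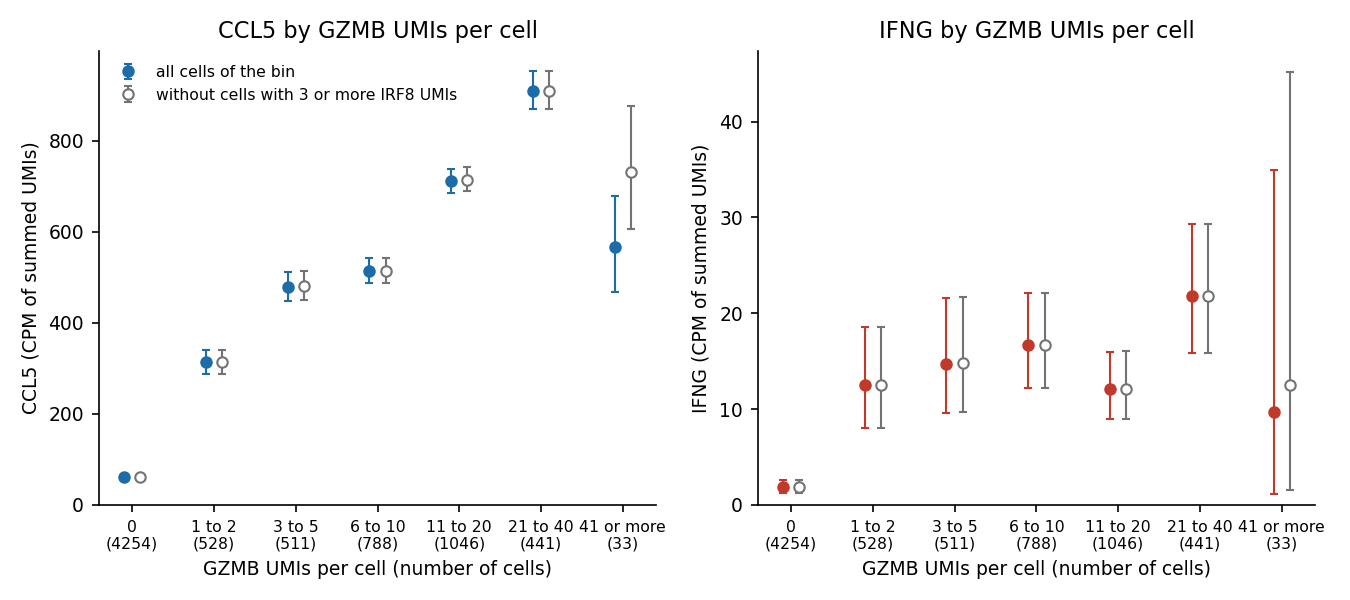
Levels of *CCL5* (left) and *IFNG* (right) in CPM of summed UMIs, on linear axes, against *GZMB* UMIs per cell in 7 bins, with the number of cells under each; filled points are all cells of a bin, open points leave out cells with 3 or more *IRF8* UMIs, and bars are 95% Poisson intervals. *CCL5* climbed from 62.2 CPM at 0 to 911 CPM at 21 to 40 UMIs, while *IFNG* lay between 9.68 and 21.8 CPM in all bins above 0.

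The summed level of *CCL5* was higher in *EOMES*+ cells where *GZMB* was low and met that of the rest where *GZMB* was high. *CX3CR1*+ cells, most of which held *GZMB*, had more of both genes. *CCL5* was at 422 CPM (391 to 456) in the 363 cells with an *EOMES* UMI and 279 CPM (273 to 285) in the rest. With no *GZMB* the contrast was 223 against 54.6 CPM, 4.09-fold (3.47 to 4.79), and with 1 to 2 *GZMB* UMIs it was 594 against 290 CPM, 2.05-fold (1.61 to 2.57). The latter rests on 39 *EOMES*+ cells with 88 *CCL5* UMIs, up to 24 in 1 cell. With 3 or more *GZMB* UMIs the levels met, at 655 and 657 CPM, a ratio of 0.997 (0.898 to 1.10). After thinning, *CCL5* was found in 14.1% (9.61 to 19.8) against 5.49% (4.79 to 6.27) of cells without *GZMB*. The thinned shares were 38.9% (23.1 to 56.5) against 27.8% (23.5 to 32.4) with 1 to 2 *GZMB* UMIs, intervals that overlap. With 3 or more they were 55.4% (45.7 to 64.8) against 50.1% (48.2 to 52.1), which also overlap. *IFNG* was 7.01 CPM (3.50 to 12.5) in *EOMES*+ cells from 11 UMIs and 7.30 CPM (6.36 to 8.35) in *EOMES*− cells, intervals that overlap.

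*CCL5* was at 614 CPM (593 to 636) in the 1293 *CX3CR1*+ cells and 220.4 CPM (215 to 226) in *CX3CR1*− cells, and *IFNG* at 17.4 (14.0 to 21.4) and 5.27 CPM (4.42 to 6.23). Of the *CX3CR1*+ cells 1181 had 3 or more *GZMB* UMIs, and among cells with that much *GZMB* the gate made little difference: *CCL5* was 640 against 671 CPM, a log2 difference of −0.07 (−0.14 to −0.00), and *IFNG* 17.3 against 14.0 CPM, a log2 difference of 0.30 (−0.15 to 0.76). Only 40 *CX3CR1*+ cells had no *GZMB* UMI. They held *CCL5* at 240.2 CPM (165 to 337) against 60.9 CPM in the other cells without *GZMB*, and *IFNG* at 14.6 CPM from 2 UMIs against 1.77 CPM.

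*TRAV10*+ cells, 248 in number, had a lower *CCL5* level in CPM than other cells in each *GZMB* group, but without *GZMB* a like share of cells with it. That share was 9.16% (4.82 to 15.5) against 9.27% (8.40 to 10.2) with no *GZMB*, from 21 UMIs in 12 *TRAV10*+ cells. It was 18.2% against 35.2% with 1 to 2 *GZMB* UMIs and 40.5% against 60.5% with 3 or more. *CCL5* was at 37.5 against 63.0 CPM with no *GZMB*, 84.4 against 332 CPM with 1 to 2 UMIs and 323 against 670 CPM with 3 or more, where the log2 difference was −1.05 (−1.31 to −0.81). *IFNG* had 4 UMIs in the *TRAV10*+ cells, 3.60 CPM (0.981 to 9.21), against 7.43 CPM (6.48 to 8.47). With 3 or more *GZMB* UMIs, 84 *TRAV10*+ cells held 1 *IFNG* UMI, 2.44 CPM (0.0619 to 13.6), against 16.0 CPM (13.6 to 18.6), and these intervals almost touch.

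Over all cells, *CCL5* was lowest among the 5 gates in cells with the homing receptor genes. It was at 77.2 CPM (67.1 to 88.5) in the 486 *CCR9*+ cells against 306 CPM in *CCR9*− cells, and at 70.2 CPM (65.3 to 75.4) in the 2214 *CCR7*+ cells against 403 CPM in *CCR7*− cells. *IFNG* had 1 UMI in *CCR9*+ cells, 0.373 CPM (0.00945 to 2.08) against 7.94, and 14 UMIs in *CCR7*+ cells, 1.29 CPM (0.705 to 2.16) against 10.5. Most cells of both gates had no *GZMB*. Among cells without *GZMB*, *CCL5* was 42.6 against 65.0 CPM for *CCR9* and 21.4 (18.5 to 24.7) against 102 CPM (95.7 to 109) for *CCR7*, and *IFNG* had 0 UMIs in 426 *CCR9*+ cells, at most 1.36 CPM, and 0.555 CPM (0.180 to 1.30) in *CCR7*+ against 3.15 CPM (2.11 to 4.52) in *CCR7*− cells. Without *GZMB* the shares of cells with *CCL5* for *CCR9* were 8.45% (5.99 to 11.5) against 9.35% (8.45 to 10.3), intervals that overlap. With 1 to 2 *GZMB* UMIs they were 11.1% (2.35 to 29.2) against 35.3% (31.1 to 39.7). The thinned share of *CCR7*+ cells without *GZMB* that held *CCL5*, 2.26%, lay within the interval of the B gene cells, 3.80% (0.790 to 10.7). That interval, from 3 of 79 cells, is wide and also holds the 5.92% of all cells without *GZMB*.

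The few homing-receptor cells with 3 or more *GZMB* UMIs had far more RNA than the rest. The 169 *CCR7*+ cells of this kind had a median of 7375 UMIs against 3254 for *CCR7*− cells, and 54.4% of them lay among the 380 highest doublet scores against 4.87%. The 33 *CCR9*+ cells had a median of 8040 UMIs, and 54.5% of them lay there. *CCL5* was 387 against 695 CPM for *CCR7* and 347 against 666 CPM for *CCR9*, and *IFNG* 6.61 (3.02 to 12.6) against 16.7 CPM and 3.18 (0.0805 to 17.7) against 15.8 CPM. The share of these *CCR9*+ cells with *CCL5* was not lower, at 69.7% (51.3 to 84.4) against 59.8% (58.0 to 61.6), or 54.5% against 50.3% after thinning. The part of doublets in these levels was not tested.

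**Figure D2:**
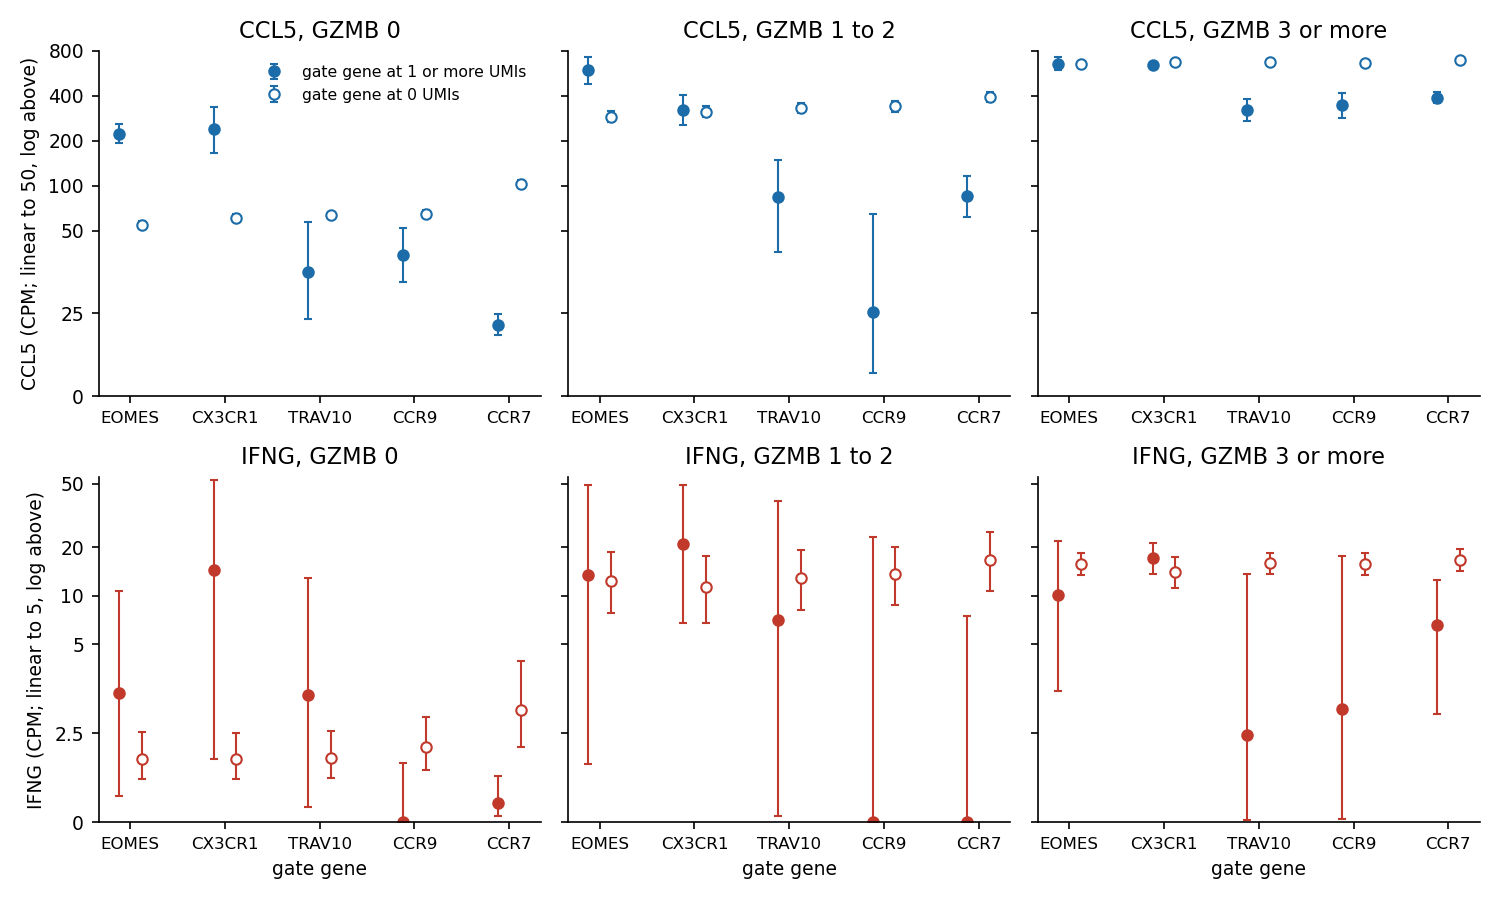
*CCL5* (top) and *IFNG* (bottom) in CPM, on axes that are linear up to 50 and 5 CPM and logarithmic above, in cells with (filled) and without (open) a UMI of each gate gene, within 3 *GZMB* groups; bars are 95% Poisson intervals. For *EOMES* the *CCL5* levels meet at 655 and 657 CPM with 3 or more *GZMB* UMIs, whereas for *CCR7* they stay apart in every *GZMB* group.

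When each cell was put in 1 group by its *GZMB* count and by which of the 5 other gate genes it held, 17 groups had at least 30 cells. *CCL5* was highest in 3 groups with 3 or more *GZMB* UMIs, those with none of the 5 genes (724 CPM, 700 to 748, 1416 cells), with *EOMES* only (718, 614 to 835, 60 cells) and with *CX3CR1* only (702, 676 to 729, 1052 cells). These 3 do not differ beyond counting error. The next group, *CCR7* only with 3 or more *GZMB* UMIs, is part of the *CCR7*+ cells whose depth and doublet scores are given above. It stood lower at 423 CPM (371 to 480), with an interval that covers counting error only. From there each group overlapped the next until the last step. The lowest group was *CCR7* only without *GZMB*, 1626 cells at 13.3 CPM (10.8 to 16.2), under the 35.3 CPM of the B gene cells. *IFNG* was highest in cells with *CX3CR1* only and 1 to 2 *GZMB* UMIs, at 27.7 CPM (8.98 to 64.5) from 5 UMIs, and no pair of neighbours in its order had separate intervals.

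Among cells without *GZMB*, some single genes marked cells with hardly any *CCL5*. The 146 cells with *SOX4*, a gene of immature T cells, held 1 *CCL5* UMI, or 1.62 CPM (0.0411 to 9.05). The 163 *CCR4*+ cells held 3, or 3.54 CPM (0.730 to 10.4), and the 145 cells with *FOXP3*, the regulatory T cell factor, held 10, or 14.5 CPM (6.97 to 26.7). With 3 or more *GZMB* UMIs the same genes marked few cells and no such low level: 11 *CCR4*+ cells there had 819.99 CPM (644 to 1029) of *CCL5*, which brought all 182 *CCR4*+ cells to 79.6 CPM (62.9 to 99.3). None of the 163 *FOXP3*+ cells at any *GZMB* level held an *IFNG* UMI, which allows up to 3.72 CPM.

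Genes of NK-like and memory effector cells marked higher *CCL5* among cells without *GZMB*. There *CCL5* was at 325 CPM (282 to 371) in 165 cells with *KLRF1*, an NK receptor gene, at 152 CPM (138 to 167) in 609 *CXCR3*+ cells and at 144 CPM (128 to 160.5) in 563 cells with *GZMK*, another granzyme. *IFNG* was at 6.15 CPM (1.68 to 15.7), 5.83 CPM (3.39 to 9.33) and 3.69 CPM (1.60 to 7.28) in the same groups. The 300 *CXCR5*+ cells without *GZMB*, at 53.4 CPM (42.9 to 65.8), and the 505 *CCR6*+ cells, at 42.5 CPM (35.0 to 51.2), lay at or under the group's 62.2 CPM, and the 1615 cells with *LEF1*, a gene of naive cells, lower at 20.04 CPM (17.0 to 23.5). Over all *GZMB* levels, in the 207 cells with *MKI67*, a proliferation gene, *CCL5* was at 394 CPM (360 to 431) and *IFNG* at 17.9 CPM (11.2 to 27.1). Most of these cells had 3 or more *GZMB* UMIs, and the part of *GZMB* in their levels was not tested. The 226 cells with *ZBTB16*, which encodes PLZF, had 118 CPM (99.2 to 140) of *CCL5* and 3 *IFNG* UMIs.

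Both transcripts were found together in 110 cells. *CCL5* was found in 55.6% (48.3 to 62.6) of the 198 *IFNG*+ cells and 29.1% of *IFNG*− cells, and 92 of the 110 cells had 3 or more *GZMB* UMIs. Within that *GZMB* group the shares were close: 92 of 144 *IFNG*+ cells held *CCL5*, 63.9% (55.5 to 71.7), against 59.7% (57.8 to 61.6) of *IFNG*− cells. After thinning they were 50.7% (38.6 to 62.8) and 50.3% (48.4 to 52.3). By dose the same held, since *IFNG* was at 14.8, 15.7 and 16.1 CPM in cells with 0, 1 to 4 and 5 or more *CCL5* UMIs, a log2 difference of 0.12 (−0.52 to 0.74) between the ends.

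Without *GZMB* the genes went together, on few cells. Of 31 *IFNG*+ cells 9 held *CCL5*, 29.0% (14.2 to 48.0), against 9.12% (8.27 to 10.0) of *IFNG*− cells. After thinning 3 of 15 *IFNG*+ cells held it, with an interval of 4.33% to 48.1%, against 5.87%. *CCL5* stood at 374 CPM (282 to 485) in the *IFNG*+ cells against 59.7 CPM (56.2 to 63.3), and at 264 CPM (187 to 363) without the 1 cell described next. *IFNG* was at 1.34 CPM (0.840 to 2.03) in the 3860 cells with neither *GZMB* nor *CCL5*, 4.27 CPM (1.57 to 9.30) with 1 to 4 *CCL5* UMIs and 15.2 CPM (5.58 to 33.1) in the 74 cells with 5 or more. The last level rests on 6 UMIs, of which 3 came from 1 cell with 18 *CCL5* UMIs, and without that cell it was 7.72 CPM (1.59 to 22.6), an interval that overlaps both other levels.

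Cells with much *IFNG* were few. Of 21 cells with 2 or more *IFNG* UMIs 18 had 3 or more *GZMB* UMIs. Among the 6 cells with 3 or 4, 1 had no *GZMB* and 18 *CCL5* UMIs, and 2 had no *CCL5*. The 88 cells with *IFNG* but no *CCL5* had 0, 1 to 2 and 3 or more *GZMB* UMIs in 22, 14 and 52 cases.

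**Figure D3:**
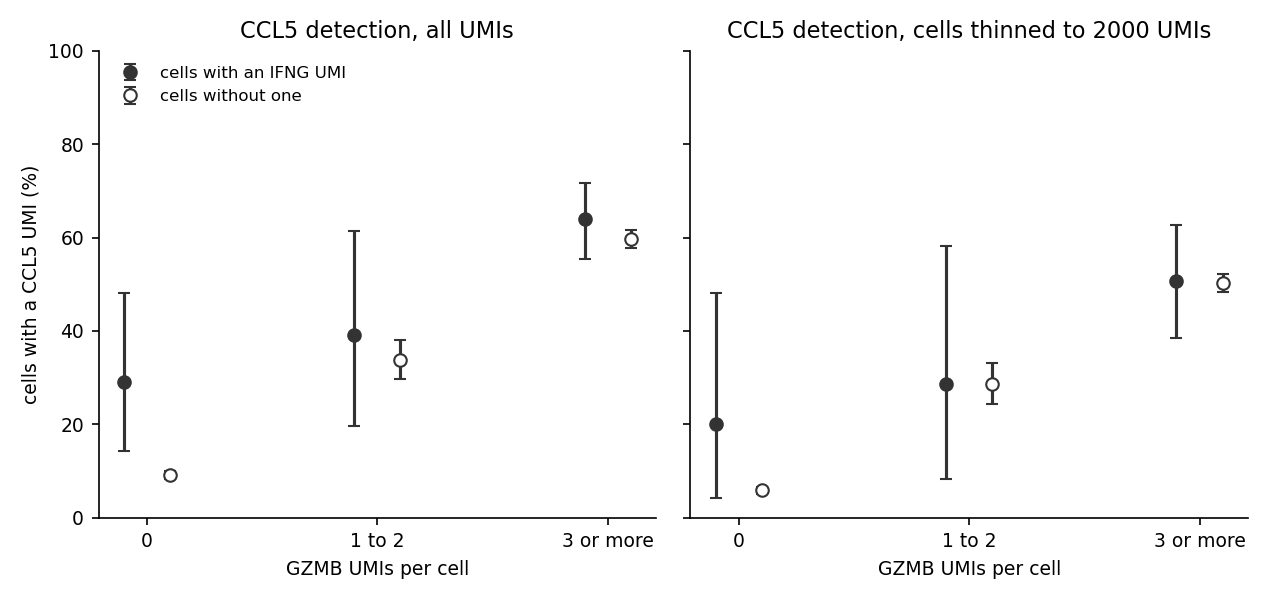
Share of cells with a *CCL5* UMI (percent) among cells with (filled) and without (open) an *IFNG* UMI in 3 *GZMB* groups, from all UMIs (left) and after thinning to 2000 UMIs per cell (right); bars are 95% Clopper-Pearson intervals. With 3 or more *GZMB* UMIs the shares are 63.9% and 59.7%, and 50.7% and 50.3% thinned, whereas with none they are 29.0% and 9.12% before thinning.

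*CCL5* was highest in the cells that carried the CD8 tag alone. A tag count was called above background when it passed the level that 90% of the B gene cells stayed under, 191 for CD4 and 330.5 for CD8, and 3636 cells passed both, 3348 CD4 only, 206 CD8 only and 411 neither. *CCL5* was at 1325 CPM (1241 to 1414) in cells above for CD8 only, against 260.2 (253 to 268) for both, 268 for CD4 only and 239.7 for neither. *IFNG* was at 5.75 CPM from 4 UMIs, 6.72, 8.40 and 4.94 CPM in the same order. CD8-only cells thus held 5.09-fold more *CCL5* than cells above for both, a log2 difference of 2.35 (2.24 to 2.45), while the *IFNG* difference was −0.23 (−2.13 to 1.17).

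The CD8-only excess in the summed *CCL5* level was present at each *GZMB* level. *CCL5* was at 500.2 CPM in 73 CD8-only cells without *GZMB* against 46.6 CPM in cells above for both, at 2257 CPM in 17 cells with 1 to 2 *GZMB* UMIs against 251 CPM, and at 1865 CPM (1727 to 2011) in 116 cells with 3 or more against 601 CPM (581 to 620). The last is a 3.11-fold difference, log2 1.64 (1.51 to 1.75). The shares of cells with *CCL5* were much closer there than the levels. *CCL5* was found in 84 of the 116 CD8-only cells, 72.4% (63.3 to 80.3), and in 857 of the 1397 cells above for both. Among cells with 3 or more *GZMB* UMIs the CD8-only cells also had *KLRD1*, a killer lectin receptor gene, at 400.1 CPM against 141 CPM and *GNLY*, a granule protein gene, at 1956 CPM against 570.0 CPM, a pair chosen for mention after their values were seen. Among CD4-tagged cells as a whole *CCL5* was at 260.2 CPM with the CD8 tag above its cut and 268 CPM below, a log2 difference of −0.04 (−0.11 to 0.03). Without *GZMB* it was lower with the CD8 tag above, at 46.6 against 65.4 CPM, a log2 difference of −0.49 (−0.68 to −0.30). With 3 or more *GZMB* UMIs it was at 601 against 638 CPM, −0.09 (−0.16 to −0.01). With 1 to 2 it was at 251 against 285 CPM, −0.19 (−0.45 to 0.08), an interval that spans 0.

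**Figure D4:**
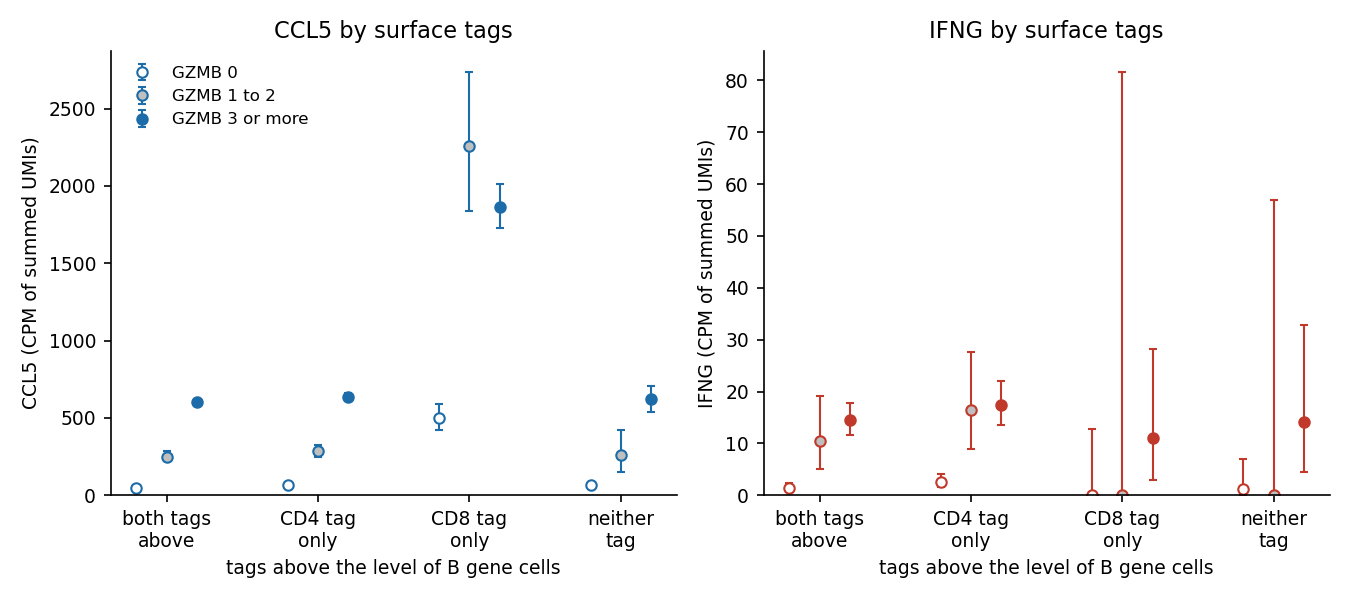
*CCL5* (left) and *IFNG* (right) in CPM of summed UMIs by surface tag group and, from open to filled points, by *GZMB* count; bars are 95% Poisson intervals. *CCL5* in CD8-only cells is the high point of each *GZMB* group, 1865 CPM with 3 or more UMIs, and the *IFNG* intervals of the tag groups overlap within each *GZMB* group.

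T cell receptor segments split the cells with 3 or more *GZMB* UMIs further. Cells are grouped here by a UMI of a segment, and its use in their receptor was not tested. A cell can hold UMIs of several segments, and 21 segments had a UMI in at least 50 of these cells. *CCL5* ranged from 202 to 1178 CPM over them, and *IFNG* from 2.44 to 32.2 CPM. *CCL5* was highest in the 351 *TRAV12-2*+ cells, at 1178 CPM (1122 to 1236), against 579 CPM in the others, a log2 difference of 1.02 (0.94 to 1.10), and was found in 82.1% of them. It was next in 186 *TRAV21*+ cells, 1094 CPM (1019 to 1174), and 95 *TRBV29-1*+ cells, 838 CPM (751 to 932). The lowest were the gamma chain segment *TRGV9*, 202 CPM (149 to 269, 52 cells), then *TRBV9*, 302 CPM (259 to 350), *TRBV7-2*, 309 CPM (255 to 373), and *TRAV10*, 323 CPM (270 to 382). Neighbours in this low end have overlapping intervals.

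*IFNG* did not follow that order. It was at 17.1 CPM (10.9 to 25.4) in *TRAV12-2*+ cells and 15.2 CPM in the others, and at 17.2 CPM (4.69 to 44.1) in *TRGV9*+ cells, at the top and the bottom of the *CCL5* order. It was highest in 64 *TRBV10-1*+ cells, where 10 cells held 12 UMIs, 32.2 CPM (16.6 to 56.3), against 14.9 CPM, a log2 difference of 1.12 (0.13 to 1.96), and *CCL5* was 575 CPM (500.2 to 657) in them. That interval does not allow for the choice of the highest of 21 segments. The *TRBV10-1*+ cells were also deeper, with a median of 4700 UMIs against 3295 in the whole *GZMB* group. After thinning 5 of them held *IFNG*, 7.81% (2.59 to 17.3), against 2.64% (2.07 to 3.32) in that group, intervals that overlap. *IFNG* was lowest with *TRAV10* and *TRBV7-2*, each from 1 UMI.

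*TRAV12-2*+ cells had a higher *CCL5* level within the cells above for both tags and within CD4-only cells, and a lower level within the few CD8-only cells. Among cells above for both tags, *CCL5* was at 1125 CPM (1061 to 1191) in 230 *TRAV12-2*+ cells and 496 CPM (477 to 516) in the others, and among CD4-only cells at 1442 CPM (1302 to 1593) against 579 CPM (555 to 604). Among CD8-only cells it was at 1155 CPM (852 to 1532) in 15 *TRAV12-2*+ cells against 1957 CPM (1807 to 2116). The shares of those cells with *CCL5* were 80.0% (51.9 to 95.7) and 71.3% (61.4 to 79.9), intervals that overlap. The *TRAV10*+ cells above for both tags held 317 CPM (262 to 380) of *CCL5* in 70 cells, and no *TRAV10*+ cell of this *GZMB* group was CD8-only. For *TRGV9*+ cells the level was low above for both tags, 129 CPM (81.5 to 193) in 36 cells against 615 CPM. It was also lower in 6 CD8-only cells, 456 CPM (219 to 839) against 1956 CPM (1810 to 2110). In 9 CD4-only cells it was 414 CPM (214 to 723) against 639 CPM, intervals that overlap.

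**Figure D5:**
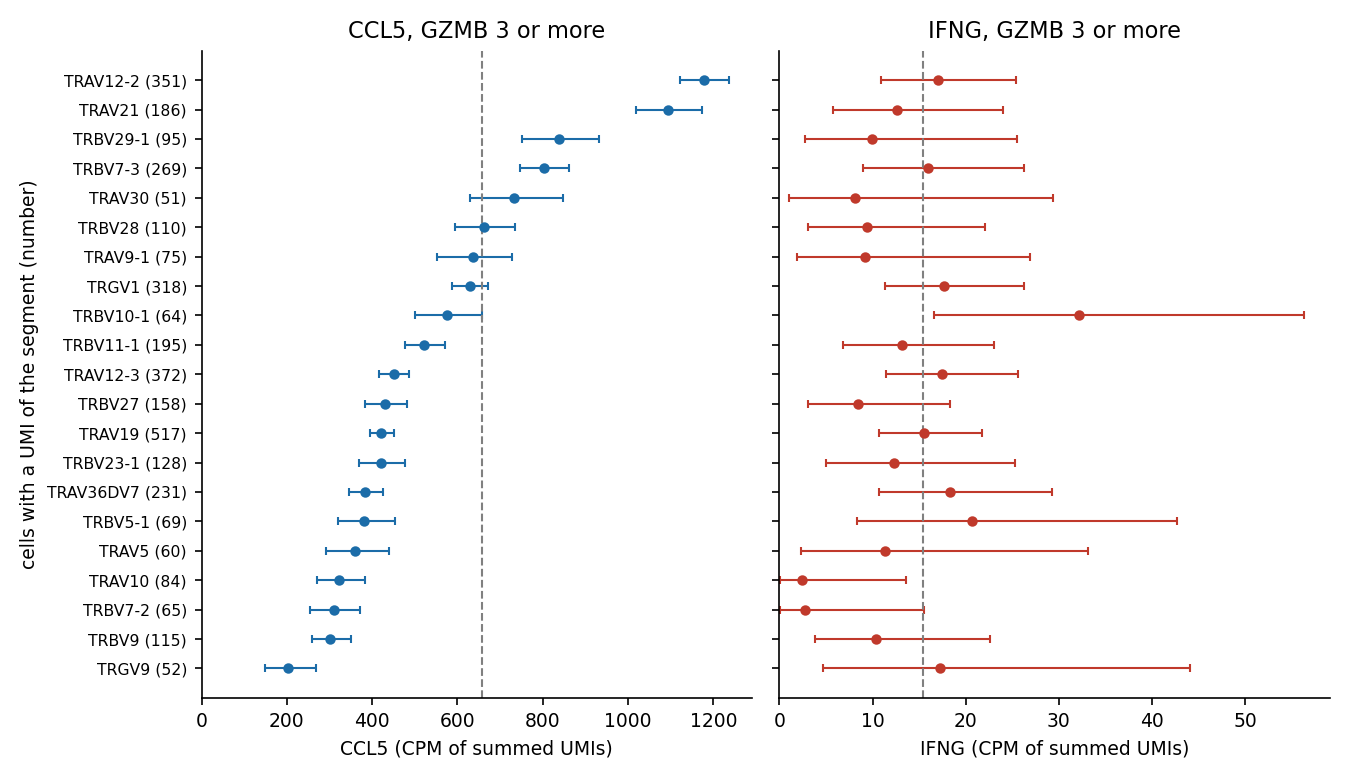
*CCL5* (left) and *IFNG* (right) in CPM in cells with 3 or more *GZMB* UMIs that hold a UMI of each of 21 receptor segments (number of cells in parentheses), ordered by *CCL5*, with 95% Poisson intervals; dashed lines are the levels of all cells of that *GZMB* group, 657 and 15.5 CPM. *CCL5* runs from 1178 CPM (*TRAV12-2*) to 202 CPM (*TRGV9*), and *IFNG* shows no matching order.

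Over all genes, *CCL5* and *IFNG* were both among those at least 2-fold higher with 3 or more *GZMB* UMIs than with 0, on CPM with 10 added, a group of 232 of the 10058 genes tested (2.31%), with 130 lower (1.29%). On that scale *CCL5* was higher by 3.21 (log2), behind only *GZMB*, *CX3CR1* and *TRBV7-3*, and *IFNG* by 1.10, while the median gene was at 0.10. The call of *IFNG* rests on the added value: with 1 added the difference was 2.52 and with 50 added 0.34, under the 2-fold limit, whereas *CCL5* was at 3.38 and 2.65. Of 16 tested granule and effector genes 14 were called higher (median 2.13), the gate genes *GZMB* and *CX3CR1* among them, such as *NKG7*, a granule membrane protein gene, at 1871 against 205 CPM, and *PRF1*, which encodes perforin, at 156 against 19.2 CPM. Of 12 factors listed as acting, directly or not, on transcription of *CCL5* or *IFNG* 6 were called higher. They included *TBX21*, the T-bet gene that drives *IFNG*, at 60.3 against 6.86 CPM, *ZEB2* at 206 against 13.6 CPM and *HOPX* at 345 against 97.9 CPM.

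Ligands, cytokine receptors and response genes moved less. Of 3 tested chemokine ligands only *CCL4L1*, a CC chemokine gene like *CCL5*, was called higher, at 124 against 27.6 CPM, and 140 of its 502 UMIs without *GZMB* came from 1 cell. None of 8 receptor genes for IL-12, IL-18 and IL-2 family cytokines was called (median 0.18), nor was *TNF*, at 7.82 against 7.63 CPM. In the interferon gamma pathway *PSMB9*, an immunoproteasome subunit that interferon induces, was higher (505 against 245 CPM) and *IFNGR2*, the second receptor chain, lower (5.43 against 42.3 CPM), out of 11. Of 7 other cytokines *LTB* (299 against 1359 CPM) and *TNFSF10* (8.19 against 29.3 CPM) were lower. Activation genes were lower in 5 of 18 and naive or central memory genes in 7 of 9 (median −1.77), with *CCR7*, a gate gene, among the latter.

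Cells with and without *CCL5* differed in few genes where *GZMB* was 3 or more. Of 8406 genes tested 13 were at least 2-fold higher in *CCL5*+ cells (0.155%), *CCL5* itself included, and 12 lower (0.143%). None of 16 granule and effector genes (median 0.17) and none of the 12 listed factors (median 0.04) was called, with *PRF1* at 169 against 134 CPM and *TBX21* at 59.7 against 61.2 CPM. *KLRD1* came nearest, at 235 against 115 CPM, a log2 difference of 0.97 on CPM with 10 added. The genes called higher included *TRAV12-2*, at 134 against 42.7 CPM, which repeats what is given for that segment above. Another was an unnamed gene, ENSMMUG00000059649, at 620.2 against 214 CPM in 597 and 215 cells. *NR4A1*, an immediate early gene of receptor signalling, was at 36.1 against 7.53 CPM, from 244 UMIs in 61 cells and 31 UMIs in 19.

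The genes called lower in *CCL5*+ cells came mostly from few cells. *IRF8* had 191 UMIs in 11 *CCL5*− cells, up to 48 in 1 cell, and *LILRA3*, *TNNI2*, *JCHAIN* and *PLAC8* were the others of the top 5. The 5 cells with 41 or more *GZMB* UMIs described above held 167 of those *IRF8* UMIs. They also held 269 *LILRA3*, 131 *TNNI2* and 178 *JCHAIN* UMIs. *IRF8* and *JCHAIN* are known from B cells and plasmacytoid dendritic cells. *LILRA4*, a listed plasmacytoid dendritic cell marker, had no match and was not measured. The other markers of that cell type summed to 28.4 CPM in *CCL5*+ and 49.8 CPM in *CCL5*− cells of this *GZMB* group, with *CLEC4C* at 0 in both. *IRF7*, which T cells also express, gave 192 of 192 and 203 of 205 of those UMIs. B cell markers summed to 73.9 and 36.9 CPM with all 5 found in both, and NK cell markers to 291 and 335 CPM with *NCAM1* at 0 in both. Markers of platelets, which are known to store CCL5, summed to 1.63 CPM from 11 UMIs and 0.971 CPM from 4, with *PPBP* and *PF4* at 0 in *CCL5*− cells. Monocyte markers summed to 2.81 and 7.28 CPM, with *S100A9* and *FCN1* at 0 in both, red blood cell markers to 111 and 99.6 CPM, and cycling markers to 203 and 157 CPM. Their part in the differences was not tested.

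*CCL5*+ cells without *GZMB* had more granule and effector transcripts than *CCL5*− cells without *GZMB*. Of 9323 genes tested 66 were higher (0.708%) and 21 lower (0.225%) in 394 cells against 3860. Granule and effector genes were called higher in 9 of 12 (median 1.48), such as *KLRD1* at 78.4 against 7.86 CPM, *CTSW*, a granule protease gene, at 236 against 44.5 CPM, and *GNLY* at 634 against 163 CPM. *IL2RB*, a receptor chain for IL-2 and IL-15, was at 141 against 59.7 CPM, and *HOPX* and *ZEB2* were the factors called. Of the naive and central memory genes *CCR7* (85.1 against 229 CPM) and *LEF1* (57.8 against 166 CPM) were among those called lower.

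Activation genes were called higher there in 5 of 17, *DUSP2*, *EGR1*, *EGR2*, *NR4A1* and *NR4A3*, on summed levels. The share of cells with *DUSP2* was not higher. It was 47.2% (42.2 to 52.3) in the *CCL5*+ cells, with up to 149 UMIs in 1 cell. In cells without *GZMB*, *CCL5* and *IFNG* it was 49.2% (47.6 to 50.8). *EGR1*, an immediate early factor gene, was at 275 against 113 CPM, found in 40 and 190 cells, and *NR4A1* at 94 against 25.8 CPM, found in 24 and 111. B cell markers stood at 355 against 207 CPM in the same groups with all 5 found in both, and red blood cell markers at 23.4 against 370 CPM, where 2649 *HBB* and 3270 *HBA* UMIs of the *CCL5*− side came from single cells. The part of other cells in these values was not tested.

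*IFNG*+ cells with 3 or more *GZMB* UMIs resembled *IFNG*− cells in granule genes and had lower summed levels of the activation genes *DUSP2* and *NR4A1*, with overlapping intervals for the shares of cells that held them. Of 8406 genes 6 were higher, *IFNG* included (0.0714%), and 21 lower (0.25%), in 144 cells against 2675. No granule and effector gene was called of 16 (median 0.15), and *PRF1* was at 170 against 155 CPM. *DUSP2*, a phosphatase gene that T cell activation induces, was at 83.3 against 218 CPM, from 51 UMIs in 30 cells and 2234 in 486, or 20.8% (14.5 to 28.4) and 18.2% (16.7 to 19.7) of cells, and 214 of the 2234 came from 1 cell. *NR4A1* was at 3.27 against 26.6 CPM, from 2 UMIs in 2 cells, 1.39% (0.169 to 4.93), and 273 UMIs in 78, 2.92% (2.31 to 3.63). *TRBV10-1* was at 129 against 38.8 CPM, from 79 UMIs in 10 cells and 398 in 54. The 10 are the cells already given for that segment above, so this is not a further result. *MKI67* was at 29.4 against 13.7 CPM and the 4 cycling markers at 292 against 179 CPM, not called singly.

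The summed level of *NR4A1* was highest in cells with *CCL5* and no *IFNG*, on few cells. Among cells with 3 or more *GZMB* UMIs it was at 4.71 CPM in the 92 cells with both, 38.3 CPM in the 1597 with *CCL5* only, 0 in the 52 with *IFNG* only (at most 16.0 CPM) and 7.89 CPM in the 1078 with neither. The 242 UMIs of the second group came from 59 cells, up to 37 in 1. The shares of cells with *NR4A1*, 2.17% (0.264 to 7.63), 3.69% (2.82 to 4.74), 0 of 52 and 1.76% (1.06 to 2.74), differ beyond counting error only between *CCL5* only and neither. *DUSP2* was at 82.4, 258, 85.3 and 153 CPM and *KLRD1* at 282, 232, 85.3 and 116 CPM in that order, and the shares of cells with *DUSP2* were 21.7%, 17.4%, 19.2% and 19.3%. *KLRD1* was higher with *CCL5* both in cells with and in cells without *IFNG*. Summed levels of *NR4A1* and *DUSP2* also moved with the tags, at 38.6 and 314 CPM in cells above for both against 6.06 and 60.3 CPM in CD4-only cells. The shares of cells with them were closer, 3.65% (2.73 to 4.77) and 21.5% (19.3 to 23.7) against 1.79% (1.11 to 2.73) and 15.6% (13.6 to 17.9). The part of the tags in the contrast was not tested.

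Over the 17 groups set by *GZMB* and the other gate genes, the log2 levels most like *CCL5* by Pearson's r, of 7759 genes, were *APEH* (0.937), *TNFRSF1B* (0.937), *STYXL1* (0.934), *TMEM50A* (0.933) and *SLC9A3R1* (0.924). For *IFNG* they were *BIN1* (0.915), *PGLS* (0.914), *ABCF1* (0.899), *ARL15* (0.892) and *OS9* (0.885). The groups share 1 library and differ in depth, and *CCL5* and *IFNG* had an r of 0.629 with each other. The lists are loose: by rank correlation or with other added values 1 to 3 of each 5 stayed.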

How the data were processed

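The authors deposited 1 matrix of UMI counts for the gene expression library and its CD4 and CD8 tags, made, per the submitters' processing notes, with STAR 2.5.1b inside Cell Ranger 3.1.0 on Mmul_10 (Seurat 3.1.3 is named too). The counts are raw. Barcodes outside 200 to 4000 genes or over 20% mitochondrial counts were removed here, as were genes in fewer than 3 cells. File symbols named 23817 genes and RefSeq gene names 720 more. CPM were UMIs summed over cells, with exact Poisson intervals, Clopper-Pearson intervals for shares and binomial intervals for ratios. Cells were thinned to 2000 UMIs with seed 1. Gene contrasts used log2 of CPM plus 10, genes with at least 50 UMIs, and a call at 2-fold. The ratio code was tested on simulated data. Scrublet (scanpy 1.11.5) called no doublet, and 1 alternative left out the top 5% of scores. Python 3.11.15, numpy 2.4.6, scipy 1.17.1, pandas 2.3.3 and matplotlib 3.10.9 were used.

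The members, the 9 gene lists and the 8 marker lists were chosen with earlier results of these data known. Some listed genes are not reported here. Of 113 listed genes 12 had no match, and of 36 markers 1. Named genes were the members, gate genes, list genes and 11 further single-gene gates, with the 5 most changed genes of a contrast and the 5 most alike. Alternatives changed the filter, scaling, thinning, gates and added value, and 3 were added after seeing the data: only cells above for both tags, without cells of 3 or more *IRF8* UMIs, and without 1 cell with 3 *IFNG* UMIs.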

Additional observations from a re-analysis of the deposited data

Results flagged for a closer look

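The 322 barcodes that the filter removed lie outside every comparison above and still held both transcripts. *CCL5* was at 150.3 CPM (130 to 173) in them, from 194 UMIs, and *IFNG* at 6.97 CPM (3.19 to 13.2), from 9 UMIs, both above the limit that a count of 0 allows. In the 305 of them that were over the mitochondrial limit, *CCL5* was at 136 CPM (113 to 162) and *IFNG* at 4.37 CPM (1.19 to 11.2).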

How the results depend on the processing

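No paired analysis was possible because there is 1 library and no replicate. Among the differences that were rerun, no direction that stood apart from 0 turned under any alternative. Rerun were the gate differences over all cells and the CD8 tag difference in CD4-tagged cells. The co-detection shares with 3 or more *GZMB* UMIs and the gene counts and lists were rerun too. Gate differences within *GZMB* groups, the CD8-only excess and the differences by receptor segment were not. Among the log2 differences, ratios and counts that answer a comparison, 110 values stayed within their interval, or within 1.5 times for gene counts, and 32 did not. Between 3 or more and 0 *GZMB* UMIs, the *CCL5* difference (3.40) was 3.49 without the highest doublet scores, 3.60 with a cut at 10 UMIs and 3.69 in cells above for both tags. For *EOMES* it went from 0.60 to 0.36 as a mean over cells, 0.32 thinned and 0.47 with 2 UMIs as the gate, and the *IFNG* difference from −0.06 to −1.44 thinned. For *CX3CR1*, *CCL5* (1.48) was 1.58 without the highest doublet scores, 1.33 as a mean over cells and 1.55 with both tags, and for *TRAV10* (−0.97) it was −0.61 with both tags. For *CCR9*, *CCL5* (−1.99) was −2.27 in cells with CD3 and no B cell genes, −2.29 without the highest doublet scores, −2.48 as a mean over cells, −2.51 thinned and −1.61 with both tags, and for *CCR7* (−2.52) it was −2.81, −3.21, −3.10, −3.10 and −2.02 in that order. Thinned *IFNG* had no UMI in *CCR9*+ or *CCR7*+ cells, so −1.33 and −3.94, from −4.41 and −3.03, are bounds with 3 UMIs in place of 0. The *CCL5* difference for the CD8 tag (−0.04), whose interval spans 0, was 0.043 as a mean over cells. The shares of *IFNG*+ and *IFNG*− cells with *CCL5*, 63.9% and 59.7%, were 50.7% and 50.3% thinned and 49.3% and 42.9% when 2 *CCL5* UMIs were asked for. With 1 or 50 added to CPM, 562 or 77 genes were higher with *GZMB* and 529 or 21 lower. Depth limits *IFNG*, since 226 UMIs leave many groups with under 10.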
